A study of Macaca radiata with 4 samples.

Results

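Genes of the cAMP machinery were followed in the corpus luteum of bonnet monkeys (Macaca radiata, all females) given LH after their own LH secretion had been blocked. They comprised G protein subunits, adenylyl cyclases, phosphodiesterases, protein kinase A (PKA) and its anchors, cAMP-activated exchange factors, CREB family factors, RGS proteins, receptor kinases and arrestins. Members were chosen by gene symbol from the array's annotation, with earlier results of these data known. Each was represented by its probe set with the highest mean log2 signal. That gave 102 genes, of 14132 with a symbol of their own on the array, measured by 220 probe sets in all. Of the 102, 87 exceeded the filter on dim signals, which lay at a signal of 90.7, and 15 did not. Unless stated otherwise, further probe sets of a gene named below are those that also exceeded this filter.

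Every animal was first given CET, described in the labels as an inhibitor of endogenous LH, at luteal day 7 and a dose of 150 µg/kg. At 24 h, 2 were injected with 20 IU/kg rhLH and 2 with PBS, and the corpus luteum was taken 8 h later. The 4 arrays are rhLH replicates 3 and 4 and PBS replicates 1 and 2, and paired values below keep that order within a group. No group without CET is among the 4 arrays, so a normal luteal phase is not represented. RNA came from whole pieces of tissue, in which fewer cells of a type and less RNA per cell cannot be told apart.

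LH acts on luteal cells through a receptor coupled to the stimulatory G protein, which activates adenylyl cyclases to make cAMP. Cyclic AMP releases the catalytic subunits of PKA from their regulatory subunits and opens the exchange factors EPAC1 and EPAC2, which load the small GTPase Rap1. PKA phosphorylates CREB family factors on cAMP response elements, while phosphodiesterases degrade the messenger and RGS proteins, receptor kinases and arrestins quieten the receptor and its G proteins. In the primate corpus luteum this route is known for sustaining progesterone synthesis.

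Transcripts of this machinery lay on both sides of the PBS level. GNG10, a G protein gamma subunit, PDE7B, a cAMP phosphodiesterase, and RGS2, which speeds GTP hydrolysis on Gq, were 2.47-fold, 2.24-fold and 2.52-fold higher on the rhLH arrays by group means. RAPGEF4, which encodes EPAC2, was 4.04-fold lower. Both rhLH arrays lay beyond both PBS arrays for each of these 4 genes. By limma's moderated test with Benjamini-Hochberg adjustment over 31659 probe sets, 0 of the 87 genes passed an adjusted p of 0.05, and 0% of 10998 genes did. The smallest adjusted p among the members was 0.919. With PBS replicate 1 as the only PBS array 21 of the 87 passed, as did 2843 of the 10998 genes, and with PBS replicate 2 as the only one 0 did. In either case the spread is that of the 2 rhLH arrays alone and the lone PBS array is assumed to vary as they do, so these counts leave out the spread between PBS arrays. An unadjusted limma p under 0.05 was reached by 2 of the 87, RAPGEF4 and GNG10, against a background of 1.90% of genes. For RAPGEF4 the unadjusted p was 0.0072 and the adjusted p 0.919, and for GNG10 they were 0.0153 and 0.919. Leaving out 1 array leaves a single array in 1 group, so only sizes of the difference are given for these 2 genes. The log2 difference of RAPGEF4 then ran from −2.38 (without rhLH replicate 3) to −1.65 (without rhLH replicate 4). That of GNG10 ran from 0.90 (without PBS replicate 1) to 1.71 (without PBS replicate 2). An exact permutation test of 2 arrays against 2 cannot give a two-sided p below 0.333.

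PBS replicate 1 stood apart from the other arrays, which bears on most values here. Its correlation with the other 3 over kept probe sets was 0.752 to 0.780, whereas those 3 correlated at 0.940 to 0.947. Its median signal was 186 over all probe sets, against 136 to 140 on the others, although the 2% trimmed means of the 4 arrays were alike. Among the 87 genes the median gap between the 2 rhLH arrays was 0.23 on the log2 scale, and that between the 2 PBS arrays was 0.67. The median size of the difference between groups, 0.40, lay between these. The rhLH arrays differed by more than 1 on the log2 scale for 3 genes, ADCY5, PDE4D and PDE11A, while the PBS arrays did for 30. Each difference is therefore also given as the mean of the rhLH arrays minus PBS replicate 1 and minus PBS replicate 2. The value relative to PBS replicate 2 is the difference without PBS replicate 1. These comparisons share the rhLH arrays.

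Both rhLH arrays lay above both PBS arrays for 13 of the 87 genes, where 16.3% of all genes did, and below both for 17, where 16.1% did. As shares of the 87 these are 14.9% and 19.5%. With at least a 2-fold gap between every rhLH and every PBS array, 0 members were higher and 1, RAPGEF4, was lower, against 0.318% and 0.336% of all genes (0.655% together). Leaving out 1 array, with fewer values to clear, gave 17 to 35 genes above and 23 to 43 below, the most in each direction without PBS replicate 2 (35 and 43). Without PBS replicate 1 these counts were 32 and 34, without rhLH replicate 3 they were 17 and 23, and without rhLH replicate 4 they were 23 and 27. The 2-fold counts were 0 and 1 without PBS replicate 1 and without rhLH replicate 4, 1 and 2 without rhLH replicate 3, and 13 and 10 without PBS replicate 2. The shares of all genes above are from 4 arrays and are no background for these leave-one-out counts, since any gene clears fewer values more easily. No share of all genes with the same array left out is given, so these counts are not read as a result about the members. The difference between groups exceeded the gap within each group for 15 of the 87 genes (17.2%) and for 16.7% of all genes. The median log2 difference was −0.084 over the 87 genes and 0.018 over all genes. Over all 102 members, dim ones included, the median was −0.088. Relative to PBS replicate 1 the median over the 87 was −0.077, where that of all genes was −0.011. Relative to PBS replicate 2 it was 0.037, where that of all genes was −0.0024, so the members' median lay below that of all genes in the first case and above it in the second. The difference took opposite signs against the 2 PBS arrays for 42 of the 87 genes, was positive against both for 22 and negative against both for 23.

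**Figure D1:**
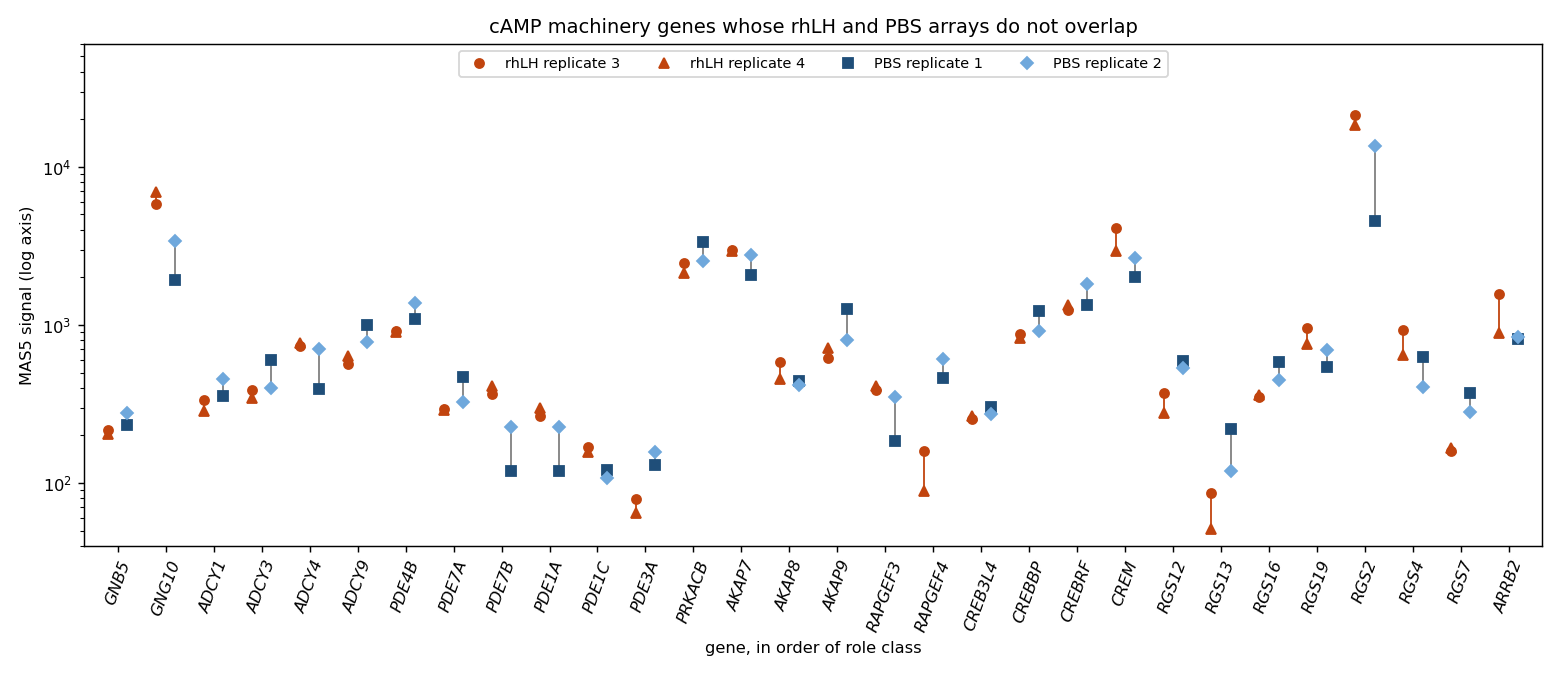
MAS5 signal (log axis) on each array for the 30 kept genes of the cAMP machinery whose rhLH and PBS arrays do not overlap, ordered by role, with rhLH left of PBS. RAPGEF4 has the widest gap between groups, and the PBS arrays of RGS2 lie further apart (4556 and 13512) than its rhLH arrays (21202 and 18546).

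**Figure D2:**
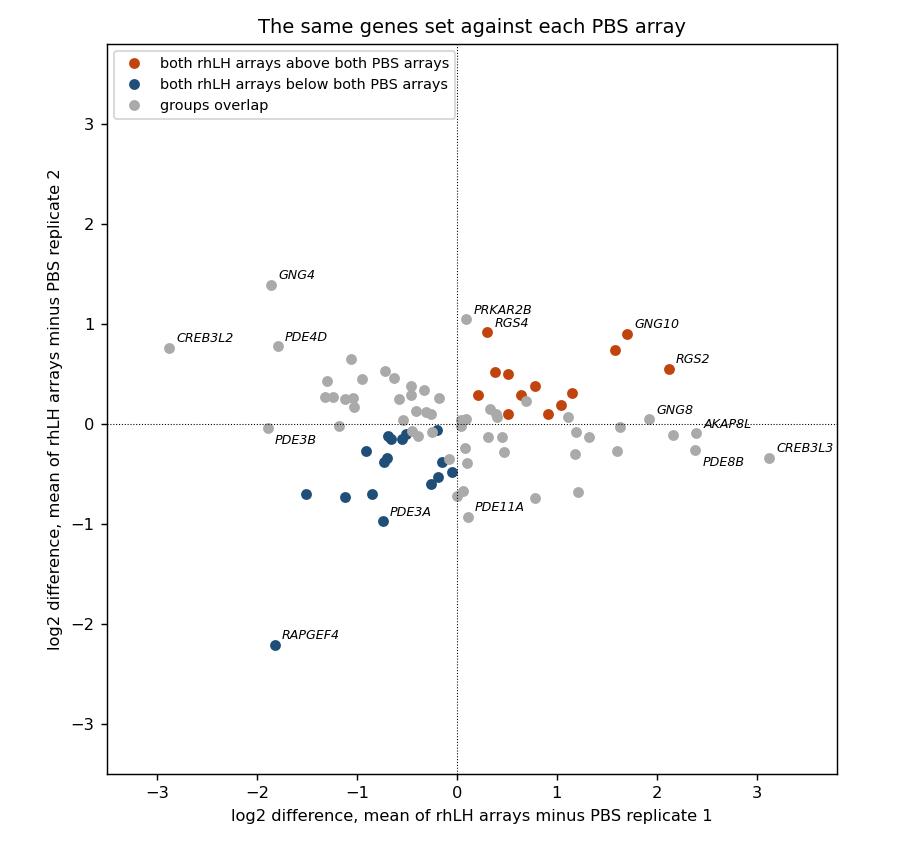
Log2 difference of the mean of the rhLH arrays minus PBS replicate 1 (x axis) and minus PBS replicate 2 (y axis) for the 87 kept genes, coloured by whether the groups overlap. RAPGEF4 lies far below 0 on both axes, whereas CREB3L3, PDE8B and AKAP8L lie far to the right of 0 and slightly below it on the y axis.

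Among the G protein subunits, GNG10 had the smallest limma p. The gamma subunits pair with beta subunits to form the dimer that leaves the alpha subunit on activation. GNG10 had signals of 5806 and 6925 on the rhLH arrays, against 1930.1 and 3386 on the PBS arrays. Its log2 difference was 1.30 (SE 0.39, 95% interval 0.36 to 2.25, limma), with 1.71 relative to PBS replicate 1 and 0.90 relative to PBS replicate 2. It is measured by a single probe set. GNB5, the divergent beta subunit that pairs with RGS proteins of the RGS7 type, had 216 and 204 on the rhLH arrays, against 234 and 278 on the PBS arrays. Its difference of −0.26 was under its SE of 0.46.

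The other beta and gamma subunits overlapped between groups, and for several the pooled difference lay with PBS replicate 1. GNB1, the common beta subunit, had signals of 7071 and 6683 on the rhLH arrays, against 1526 and 7422 on the PBS arrays. GNG5, a widely expressed gamma subunit, showed the same layout, with 7793 and 7296 with rhLH against 2428 and 7707 with PBS. So did GNG8, with 392 and 281 with rhLH against 75.9 and 321 with PBS. Their differences relative to PBS replicate 1 were 2.16, 1.63 and 1.92, and relative to PBS replicate 2 they were −0.11, −0.032 and 0.048. PBS replicate 2 thus lay close to both rhLH arrays for these 3 genes. GNG11, another gamma subunit, had 8476 and 9923 on the rhLH arrays and 11475 and 7227 on the PBS arrays (log2 0.010), while a further probe set, at 0.62, was higher on both rhLH arrays. GNG4, also a gamma subunit, had its highest and its lowest signal on the PBS arrays, at 74.9 and 141 with rhLH and 417 and 29.5 with PBS. GNB3 and GNB4, also beta subunits, differed by 0.24 and −0.084.

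Of the alpha subunits, 0 of the 4 kept genes separated the groups, where 32.3% of all genes did. GNAI3, an inhibitory subunit that lowers cyclase activity, had signals of 4657 and 3717 on the rhLH arrays and 4699 and 3472 on the PBS arrays (log2 0.043, 95% interval −0.79 to 0.87, limma). A further probe set of GNAI3 gave nearly the same value on all 4 arrays, 1684 and 1696 with rhLH and 1695 and 1679 with PBS, PBS replicate 1 included. Another of its probe sets took the opposite sign (−0.10). GNAI1, its relative, had 1468 and 1256 with rhLH and 1807 and 1242 with PBS (log2 −0.14), and its further probe set stood at 0.024. GNA14, of the Gq family, differed by −0.26, and GNAO1, of the inhibitory family, by −0.43. GNAS, which encodes the stimulatory subunit itself, GNAI2 and GNAQ were not matched to a probe set in the annotation table and are left aside.

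Adenylyl cyclases make cAMP from ATP under the control of these subunits. ADCY9, the isoform least sensitive to forskolin, had signals of 563 and 634 on the rhLH arrays, against 1003 and 785 on the PBS arrays. Both rhLH values were lower, and the log2 difference of −0.56 (SE 0.35) exceeded the gaps within the groups (0.17 with rhLH and 0.35 with PBS). ADCY3, first known from olfactory cilia, had 387 and 344 with rhLH and 598 and 398 with PBS, and ADCY1, a calcium-stimulated isoform, had 336 and 283 with rhLH and 354 and 453 with PBS. For both, the brighter rhLH array lay close to the dimmer PBS array, at nearest ratios of 1.03 and 1.05. ADCY4, which G protein beta-gamma dimers stimulate, was the single kept cyclase with both rhLH arrays higher, at 741 and 767, against 393 and 701 with PBS. Relative to PBS replicate 2 its difference was 0.10.

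ADCY6, a cyclase inhibited by calcium, had the smallest spread over the 4 arrays of the 87 genes, at 612 and 627 with rhLH and 601 and 630.2 with PBS. Its log2 difference was 0.010, but the 95% interval of −0.84 to 0.86 (limma) leaves room for a difference in either direction. ADCY7 overlapped, at 241 and 402 with rhLH and 375 and 332 with PBS. ADCY5, the close relative of ADCY6, was uneven within both groups, at 42.3 and 178 on the rhLH arrays and 236 and 72.1 on the PBS arrays. In all, the 7 kept cyclases had a median of −0.36, where that of all genes was 0.018. Of the 7, 1 lay over and 3 lay under both PBS arrays, where 16.3% and 16.1% of all genes did. Nothing was tested for the cyclases as a class. ADCYAP1R1, the cyclase-coupled receptor of the peptide PACAP, had 2709.9 and 2437 with rhLH and 3068 and 2393 with PBS (log2 −0.076), and its 2 further probe sets both stood at −0.59.

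Phosphodiesterases that degrade cAMP alone form families 4, 7 and 8. PDE7B had signals of 367 and 409 on the rhLH arrays, against 119 and 225 on the PBS arrays. Its log2 difference was 1.16 (SE 0.50, 95% interval −0.079 to 2.40, limma), 1.58 relative to PBS replicate 1 and 0.74 relative to PBS replicate 2, from its single probe set. PDE7A, encoded by a separate gene of the same family, lay the other way, at 292 and 288 with rhLH and 467 and 323 with PBS. PDE4B, of the rolipram-sensitive family, had closely matched rhLH signals of 910.03 and 902, against 1084 and 1379 on the PBS arrays. Its log2 difference was −0.43 (SE 0.33), and its further probe set, at −0.32, overlapped between groups.

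PDE8A and PDE8B, high-affinity cAMP phosphodiesterases known to restrain steroidogenesis in mouse endocrine cells, lay in opposite directions relative to PBS replicate 1. PDE8A had 1925 and 1974 on the rhLH arrays, against 4893 and 1616 on the PBS arrays. PDE8B had 1203 and 1293 with rhLH, against 226 and 1497 with PBS. Relative to PBS replicate 1 the log2 differences were −1.32 for PDE8A and 2.39 for PDE8B. Relative to PBS replicate 2 they were 0.27 and −0.26, small and of the opposite signs. The further probe set of PDE8A stood at −0.035, and those of PDE8B at 1.16 and 0.28. PDE4A differed by −0.080 and PDE4C by −0.080. PDE4D, an isoform that FSH induces in rat Sertoli cells, was uneven within both groups, with signals of 199 and 34.5 with rhLH and 345 and 45 with PBS, 1 in each group below the filter level.

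The phosphodiesterases that degrade both cAMP and cGMP included 3 of 6 genes whose groups did not overlap, where 32.3% of all genes did not. PDE3A, which cGMP inhibits and which is known from the oocyte, was dim, at 79.2 and 64.5 on the rhLH arrays, both below the filter level, and 130.3 and 156 on the PBS arrays. Its log2 difference of −0.86 (SE 0.59) was of like size against either PBS array (−0.74 and −0.98). PDE3B, its counterpart in adipocytes and liver, rested on PBS replicate 1, with 148 and 201 with rhLH and 684 and 178 with PBS. The calcium- and calmodulin-activated PDE1A had 267 and 299 on the rhLH arrays, against 118 and 225 on the PBS arrays. All 3 of its further kept probe sets were also positive, at 0.35, 0.36 and 1.06, beside 0.73 for the brightest. PDE1C, its relative, had 168 and 156 with rhLH and 121 and 108 with PBS, but its further probe set stood at −1.49, with groups that also did not overlap. PDE10A overlapped, at 173 and 189 with rhLH and 364 and 129 with PBS, as did PDE11A, at 46.1 and 157 with rhLH and 80.1 and 181 with PBS.

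Of the kept genes of families that act on cGMP, 0 of 3 separated the groups, where 32.3% of all genes did. PDE5A, the target of sildenafil, had 1489.6 and 1957 with rhLH and 2548 and 1431 with PBS (log2 −0.16). Its 2 further kept probe sets both stood at −0.74. Another, under the filter, was higher on both rhLH arrays, at 133 and 119 with rhLH and 54.9 and 36.7 with PBS (log2 1.22). The last, also under the filter, stood at −0.23. PDE6A, a rod photoreceptor subunit, and PDE6D, a carrier of prenylated proteins, differed by 0.018 and −0.036. The further probe set of PDE6A was −0.064, opposite in sign to the first and as near 0.

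Of the 5 kept PKA subunits, 0 lay above and 1 lay below both PBS arrays, where 16.3% and 16.1% of all genes did. PRKACB, a catalytic subunit, had signals of 2468 and 2138 on the rhLH arrays, against 3373 and 2556 on the PBS arrays. Both rhLH arrays were lower, with log2 differences of −0.55 relative to PBS replicate 1 and −0.15 relative to PBS replicate 2, and so was the further probe set (−0.40). PRKAR2B, a regulatory subunit induced by gonadotropin in rat granulosa cells, had 4869 and 3571 with rhLH and 3903 and 2013 with PBS. The dimmer rhLH array lay below the brighter PBS array, so the groups overlapped, and the log2 difference of 0.57 (SE 0.43) was 0.10 relative to PBS replicate 1 and 1.04 relative to PBS replicate 2. PBS replicate 1 thus lay nearer to the rhLH arrays than PBS replicate 2 did. PRKAR1A, the ubiquitous regulatory subunit, had 1367 and 1830.2 with rhLH and 689 and 1951 with PBS, a pooled 0.44 that became −0.30 without PBS replicate 1. PRKAR2A (103 and 92.1 with rhLH, 216 and 84.7 with PBS) and the catalytic PRKACG (119.8 and 121 with rhLH, 281 and 98.5 with PBS) were dim, and each was highest on PBS replicate 1. PRKACA, the main catalytic subunit of most tissues, was below the filter level on all 4 arrays, at 44.8 and 48 with rhLH and 30.2 and 41.5 with PBS, and was not tested.

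Anchoring proteins hold PKA at particular places in the cell. AKAP9, at the centrosome and Golgi, had signals of 617 and 709.9 on the rhLH arrays, against 1257 and 801 on the PBS arrays, both lower (log2 −0.59, SE 0.38). AKAP7, a small membrane anchor, had 3001 and 2920.1 with rhLH and 2075 and 2768 with PBS, a difference of 0.10 relative to PBS replicate 2, and a further probe set pointed the other way (−0.76). AKAP8, a nuclear anchor, had 579 and 458 with rhLH and 443 and 418 with PBS. Without rhLH replicate 3 its log2 difference of 0.25 was 0.087, and leaving out rhLH replicate 4 instead gave 0.42. AKAP1 tethers PKA to the outer mitochondrial membrane, and its brightest probe set overlapped, at 1877 and 2116 with rhLH and 789 and 2178 with PBS. Both further probe sets of AKAP1 were higher on both rhLH arrays, at 1.01 and 0.90, and the first of them had signals of 1446 and 1314 with rhLH and 412 and 1098 with PBS. AKAP8L, a relative of AKAP8, had 1021 and 809 with rhLH and 159.6 and 972 with PBS, so its 1.15 rested on PBS replicate 1. AKAP17A, a splicing-related anchor, stood at −0.39 on its brightest probe set and at 0.41 and 0.12 on the others. AKAP12 and AKAP13 were not matched to a probe set and were not analysed.

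The 2 EPAC genes lay on opposite sides of the PBS level. RAPGEF4 had signals of 159 and 89.4 on the rhLH arrays, against 463 and 612 on the PBS arrays. The brighter rhLH array was 2.74-fold below the dimmer PBS array, and rhLH replicate 4 lay just under the filter level. Its log2 difference was −2.01 (SE 0.50, 95% interval −3.24 to −0.78, limma), of like size relative to PBS replicate 1 (−1.82) and PBS replicate 2 (−2.21). A further probe set of RAPGEF4, with the suffix _x_at, did not show this (log2 0.59). It had 112 and 127 with rhLH and 153 and 31.8 with PBS, and what else it detects was not examined. The remaining probe set of RAPGEF4, under the filter, overlapped between groups, at 24.6 and 51.7 with rhLH and 95.1 and 43.9 with PBS (log2 −0.64). RAPGEF3, which encodes EPAC1, had 389 and 411 on the rhLH arrays, against 185 and 349 on the PBS arrays. Both rhLH arrays were higher, by 1.05 relative to PBS replicate 1 and by 0.19 relative to PBS replicate 2 (pooled 0.62, SE 0.48).

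The other RAPGEF genes also activate Rap proteins but are not the classical cAMP-opened factors. Of these 4, 0 separated the groups, where 32.3% of all genes did. RAPGEF2 had 4049 and 4800.2 with rhLH and 3347 and 4104 with PBS (log2 0.25), with further probe sets at 0.34 and 1.37. RAPGEF6, a relative of RAPGEF2, had 2378 and 1961 with rhLH and 2019 and 2089.6 with PBS (log2 0.072), but its 6 further kept probe sets were all negative, between −0.91 and −0.14. RAPGEF1, a tyrosine kinase-regulated exchange factor, stood at −0.14 on its brightest probe set, at −0.51 on a further one and at 0.85 and 1.05 on the other 2. RAPGEF5 was dim and differed by −0.30.

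**Figure D3:**
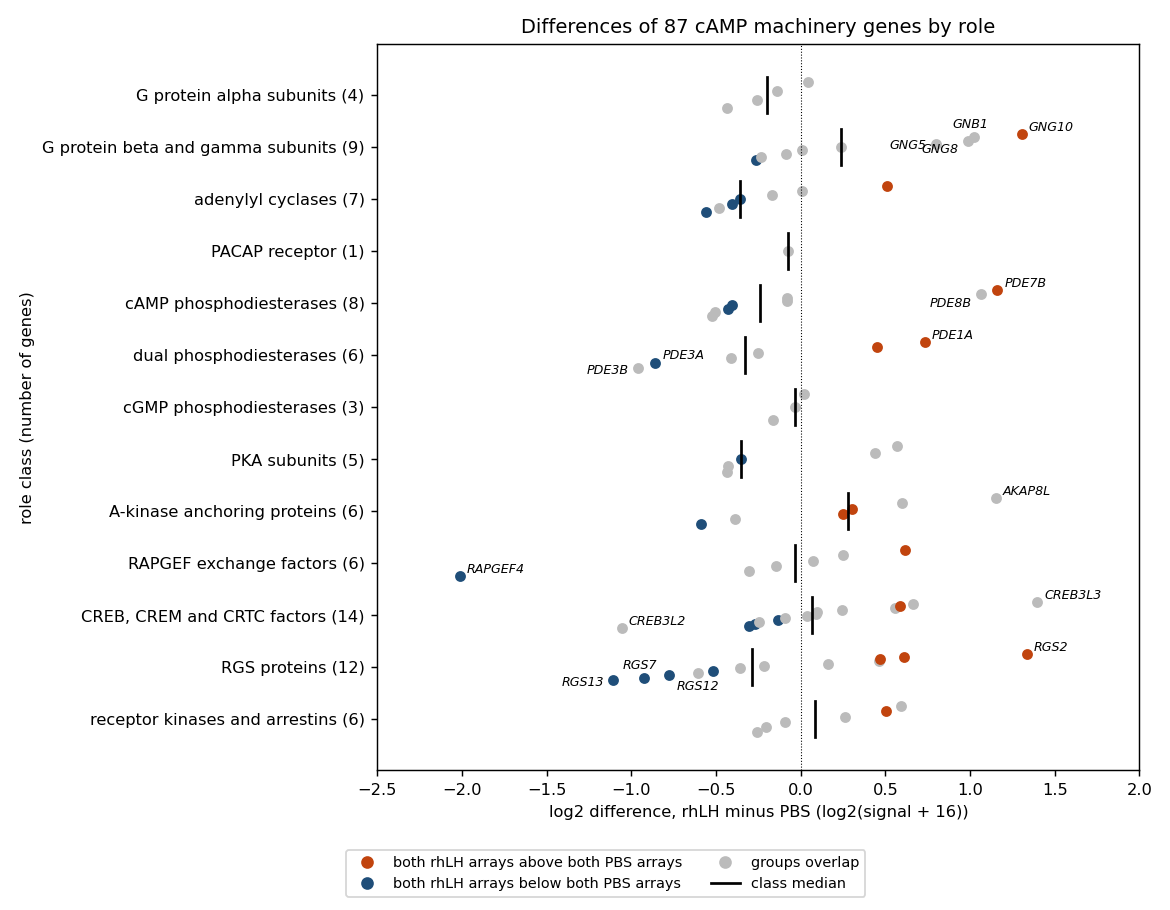
Log2 difference, rhLH minus PBS, of each of the 87 kept genes (points) by role, with class medians (bars) and the number of genes in brackets. RAPGEF4 lies alone at −2.01, and the class medians run from −0.36 for adenylyl cyclases to 0.28 for anchoring proteins.

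Among the CREB family, CREM was the single gene with both rhLH arrays higher. CREM encodes activators and, from an internal promoter, the inducible repressor ICER, which cAMP is known to induce in endocrine tissue. Its brightest probe set had signals of 4088 and 2925 on the rhLH arrays, against 2000.1 and 2650.2 on the PBS arrays. The log2 difference was 0.58 (SE 0.35), 0.79 relative to PBS replicate 1 and 0.38 relative to PBS replicate 2. It became 0.34 without rhLH replicate 3. Of the 4 further kept probe sets, 3 were also higher on both rhLH arrays. The one with the widest gap had 2784 and 1585 with rhLH and 543 and 1283 with PBS (log2 1.31, unadjusted p = 0.0471, adjusted p = 0.919, limma). The other 2 stood at 0.67 and 0.57. The last was lower on both rhLH arrays, at 416 and 424 with rhLH and 534 and 455 with PBS (log2 −0.22). Which transcripts of CREM each probe set detects is not given in the sources used here.

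CREB1, the factor PKA classically phosphorylates, had signals of 1491 and 2013 on the rhLH arrays and 748 and 1829 on the PBS arrays. Its pooled 0.56 became −0.077 without PBS replicate 1, and its further probe set ran from 1.87 relative to PBS replicate 1 to −0.17 relative to PBS replicate 2. The CREB coactivators of the CRTC family overlapped between groups. CRTC2 had 799 and 678 with rhLH and 525 and 899 with PBS (log2 0.10), CRTC3 differed by 0.091 and CRTC1 by −0.093. CREBBP, the histone acetyltransferase that binds phosphorylated CREB, had 878 and 830.1 with rhLH and 1218 and 919.9 with PBS, lower on both rhLH arrays, as was its further probe set (−0.41).

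The remaining factors of this group carry the CREB name but are regulated in other ways, several at the endoplasmic reticulum. CREB3L4 had 255 and 267 with rhLH and 302 and 274 with PBS, and CREBRF, a regulator of CREB3, had 1249 and 1340.3 with rhLH and 1342 and 1814 with PBS. Both were lower on both rhLH arrays by small amounts (−0.13 and −0.27). Of the 3 further probe sets of CREBRF, 2 were lower (−1.43 and −0.87) and 1 was higher (1.21). CREB3 stood at 0.67 on its brightest probe set, with 1659 and 1826 with rhLH and 564 and 2097 with PBS, and at −0.88 on the other. CREB3L2 (142 and 164 with rhLH, 1224 and 83.5 with PBS) and CREB3L3 (224 and 305 with rhLH, 15.8 and 335 with PBS) had PBS signals far apart on either side of the rhLH level. CREBZF differed by 0.039 on its brightest probe set and −0.55 on the other. CREB3L1 differed by 0.24 and CREB5 by −0.25. Of the 14 genes, 1 lay over and 3 lay under both PBS arrays, where 16.3% and 16.1% of all genes did. Their median was 0.065, where that of all genes was 0.018.

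RGS proteins speed GTP hydrolysis on G protein alpha subunits, and 7 of the 12 kept genes did not overlap between groups, 3 higher and 4 lower. Of all genes, 32.3% did not overlap, 16.3% higher and 16.1% lower. For 5 of the 12 the difference exceeded both gaps within groups, as it did for 16.7% of all genes. Nothing was tested for the RGS genes as a class. RGS2 had signals of 21202 and 18546 on the rhLH arrays, against 4556 and 13512 on the PBS arrays. Its log2 difference of 1.34 had a 95% interval of −0.055 to 2.73 (limma), made up of 2.12 relative to PBS replicate 1 and 0.55 relative to PBS replicate 2. Its further probe set overlapped, at 1352 and 1120.4 with rhLH and 1248 and 740.1 with PBS (log2 0.35).

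RGS4, which acts on Gi and Gq, had 933 and 649 on the rhLH arrays, against 627 and 405 on the PBS arrays, with a nearest ratio of 1.03. Its log2 difference of 0.61 became 0.35 without rhLH replicate 3. On a further probe set the groups did not overlap either, at 174 and 193 with rhLH and 55.9 and 68.7 with PBS (log2 1.35, unadjusted p = 0.0572, limma). Both of those PBS signals lay under the filter level, so the size of the difference depends on the pseudocount. Its other probe set was −0.45, with 354 and 249.8 with rhLH and 882 and 189 with PBS. RGS19, which acts on the inhibitory subunits, had 961 and 761 with rhLH and 540.5 and 696 with PBS (log2 0.47, and 0.30 without rhLH replicate 3).

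On the lower side, RGS7, which forms a dimer with the GNB5 product, had signals of 159 and 167 on the rhLH arrays, against 371 and 281 on the PBS arrays. Its log2 difference was −0.92 (SE 0.47), −1.12 relative to PBS replicate 1 and −0.73 relative to PBS replicate 2. RGS11, of the same subfamily, overlapped (205 and 189 with rhLH, 139 and 217 with PBS). RGS12, a large scaffold-like RGS protein, had 370.2 and 278 with rhLH and 590.3 and 533 with PBS (log2 −0.78, SE 0.40). Of its 3 further probe sets, 2 were lower (−0.91 and −1.16) and 1 was higher (0.70). RGS13, a small RGS protein known from B cells and mast cells, had 86.8 and 50.8 with rhLH, both below the filter level, and 219 and 119 with PBS. RGS16, which acts on Gi and Gq, had 349 and 359 with rhLH and 585 and 451 with PBS (log2 −0.52).

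The other 5 kept RGS genes overlapped between groups. RGS14 had 728 and 719 on the rhLH arrays, level with PBS replicate 1, and 722 and 1199 on the PBS arrays. RGS10 had 326 and 466 with rhLH and 412 and 502 with PBS. RGS18, known from platelets, had 203 and 112 with rhLH and 87.4 and 127 with PBS. RGS22, a testis-enriched member, was highest on PBS replicate 1 (272 and 113 with PBS, after 99.3 and 123 with rhLH). RGS5 was not matched to a probe set and was not analysed.

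Receptor kinases phosphorylate the active receptor, and arrestins then uncouple it. ARRB2 had signals of 1572 and 885 on the rhLH arrays, against 820.3 and 833 on the PBS arrays, so 3 of the 4 arrays lay close together and rhLH replicate 3 above them. Its log2 difference of 0.51 became 0.10 without rhLH replicate 3. ARRB1 overlapped, at 876 and 658 with rhLH and 944 and 698 with PBS (log2 −0.095), and its 3 further probe sets stood between 0.0034 and 0.32. GRK2, the kinase also known as beta-adrenergic receptor kinase, had 511 and 329.9 with rhLH and 182 and 391 with PBS (log2 0.59), and its further probe set, at 0.20, was higher on both rhLH arrays. GRK3, its relative, had 316 and 220.5 with rhLH and 351 and 289 with PBS. GRK6 stood at −0.20 on its brightest probe set, yet at 1.03 and 1.07 on 2 of its 4 further ones, both with higher signals on both rhLH arrays. GRK4 stood at 0.26 on the brightest and −0.49 on the other. The further probe set of GRK3 (0.37) was likewise opposite to the first (−0.26).

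Probe sets of a gene often disagreed. Of the 87 kept genes, 42 had more than 1 kept probe set, with 73 further ones in all. Of these 73, 30 had the opposite sign to the brightest, in 19 genes. Among the 30 genes whose groups did not overlap, 14 had further kept probe sets, 24 in all, and 7 of those 24 had the opposite sign, 1 in each of 7 genes. AKAP1, PDE1A, GNB1, PDE8B and RAPGEF2 each had a positive pooled difference on all of their 3 or more kept probe sets. ADCYAP1R1 and PDE5A were negative on all 3. These signs depend in part on PBS replicate 1. Relative to PBS replicate 2, GNB1 stood at −0.11, −0.17 and −0.52, PDE8B at −0.26, −0.59 and 1.22, and AKAP1 at −0.13, 0.32 and 1.18. The brightest probe sets of ADCYAP1R1 and PDE5A were then positive (0.10 and 0.25). PDE1A and RAPGEF2 stayed positive on all of theirs.

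**Figure D4:**
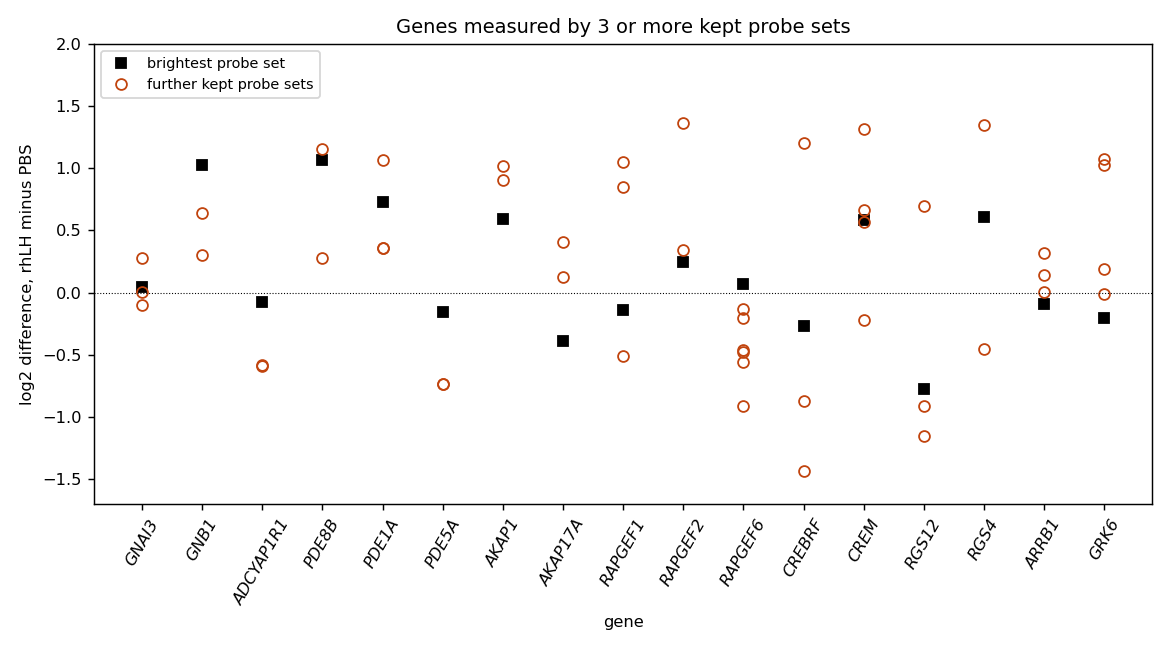
Log2 difference, rhLH minus PBS, of the brightest kept probe set (black squares) and of the further ones (open circles) for the 17 genes with at least 3. CREM has 4 of 5 above 0, and RAPGEF6 has its brightest just above 0 and the other 6 below.

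The 15 genes under the filter had signals of 4.41 to 197.6 and were not tested. Of these, 4 lay above and 5 below both PBS arrays. For all genes under the filter no such share is given, and the 16.3% and 16.1% above are of kept genes. These counts are therefore not read as a result about the dim members. Cone kinase GRK7 was at 6.78 and 5.99 with rhLH and 68.1 and 51.4 with PBS, all below the filter level. GNG7, a gamma subunit known from the striatum, had 7.93 and 90.8 with rhLH and 128 and 136 with PBS, with a log2 difference of −1.55 that was −0.47 without rhLH replicate 3. The calcium-stimulated cyclase ADCY8 had 198 and 67.9 with rhLH and 59.5 and 20.1 with PBS. PRKAR1B, a regulatory subunit known from brain, had 129 and 81.8 with rhLH and 65.7 and 52.4 with PBS. RGS1, known from lymphocytes, had 123 and 91.7 with rhLH and 73.3 and 69.9 with PBS. The others not named above were ADCY10, AKAP14, AKAP5, AKAP6, GNA13, PDE6C, RGS20, RGS6 and RGS9.

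Other genes of the pathway were taken from 6 lists, and 0 of their 32 measured entries passed the limma test at an adjusted p of 0.05. Of the G protein chaperones, PDCL, which helps assemble beta-gamma dimers, had signals of 1392 and 1418 on the rhLH arrays, against 385 and 967 on the PBS arrays (log2 1.18, and 0.53 relative to PBS replicate 2). RIC8A, a chaperone of alpha subunits, had 1496 and 1371 with rhLH and 551 and 1353 with PBS, a difference of 0.081 relative to PBS replicate 2. Including GPSM2, 3 of the 5 kept genes of that list lay above both PBS arrays and 0 below, where 16.3% and 16.1% of all genes did, and the nearest rhLH and PBS arrays of RIC8A were at a ratio of 1.01. In the Rap1 branch, RAP1A itself had 6574 and 6559.9 with rhLH and 6354 and 7126 with PBS (log2 −0.035). SIPA1L1, a Rap GTPase-activating protein, had 359 and 357 with rhLH and 99.1 and 411 with PBS, and RASIP1, a Rap effector of endothelium, 1942 and 1969 with rhLH and 1407 and 1892 with PBS.

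Among effectors beside PKA and EPAC, the cAMP-binding Popeye protein genes POPDC3 (134 and 100 with rhLH, 349 and 175 with PBS) and BVES (76.3 and 90.3 with rhLH, 334 and 94.4 with PBS) were lower on both rhLH arrays. These were 2 of the 6 kept genes of their list, where 16.1% of all genes were lower. Both rhLH signals of BVES lay below the filter level, and its nearest rhLH and PBS arrays were at a ratio of 1.04. SIK1, a kinase that cAMP induces and that restrains CRTC coactivators, overlapped, at 721 and 236 with rhLH and 495 and 846 with PBS, while the PKA inhibitor gene PKIG had 2422 and 1763 with rhLH and 1571 and 1898 with PBS. Of the receptors listed, ADORA2B alone was kept, at 193 and 128 with rhLH and 285 and 96.9 with PBS, and LHCGR was not matched to a probe set. Among the 11 kept CRE target genes, 1 lay over and 1 lay under both PBS arrays, where 16.3% and 16.1% of all genes did. CYP19A1, the aromatase, had 12669.9 and 20847 with rhLH and 1884 and 7431 with PBS, and the nuclear receptor NR4A1 had 487 and 1605 with rhLH and 1633 and 3684 with PBS.

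The tissue label was checked against markers of luteal cells. STAR, which carries cholesterol into mitochondria, had 52570.3 and 51659.6 on the rhLH arrays and 24283 and 54566 on the PBS arrays. HSD3B2, which makes progesterone, had 33922 and 38138 with rhLH and 25500.1 and 29153 with PBS, though FSHR, LHCGR and CYP11A1 were not matched to a probe set. Granulosa-lutein markers summed to 149335 and 160917 on the rhLH arrays, against 69421 and 149241 on the PBS arrays, and 5 of 8 lay above both PBS arrays, as 16.3% of all genes did. Sums of fibroblast markers (54775 and 60830 with rhLH, 32598 and 63334 with PBS) were also lowest on PBS replicate 1, as were those of theca-lutein, endothelial, pericyte and smooth muscle, macrophage and T and NK cell markers. These sums rest on the brightest probe sets. Of the 45 kept markers over all 8 lists, 27 were lowest on PBS replicate 1 and 7 were highest there, PECAM1 and TEK of endothelium, COL3A1 and LUM of fibroblasts, MSR1 of macrophages and PF4 and GP9 of platelets. Macrophage markers summed to 10549 and 6516 with rhLH and 5429 and 9963 with PBS. Of these, 8 of 8 overlapped between groups, where 32.3% of all genes did not. Pericyte and smooth muscle markers summed to 16235 and 20166 with rhLH and 11557 and 16631 with PBS. Of these 6, 1 lay above and 0 below both PBS arrays, where 16.3% and 16.1% of all genes did. It was TAGLN (log2 1.24 relative to PBS replicate 1 and 1.30 relative to PBS replicate 2), which passed the 2-fold rule, as 0.318% of all genes did upwards. The granulosa-lutein marker HSD17B1 also passed it, at 273 and 319 with rhLH and 67.1 and 51.4 with PBS. Both of those PBS signals lay below the filter level. For theca-lutein cells CYP17A1 alone was kept, at 2296 and 5336 with rhLH and 1715 and 6687 with PBS. Of T and NK cell markers CD8A (133 and 50.7 with rhLH, 90.8 and 118 with PBS) and GZMB (15764 and 16051 with rhLH, 4481 and 10891 with PBS) were kept, while CD3D, CD3E and CD3G were not matched to a probe set. Endothelial markers summed to 20660 and 22443 with rhLH and 18883 and 23605 with PBS. Of these 9, 2 lay above and 1 below both PBS arrays, where 16.3% and 16.1% of all genes did. For neutrophils and platelets 2 of 6 lay below both PBS arrays, as 16.1% of all genes did. Their markers summed to 1309 and 1128 with rhLH and 1293 and 1199 with PBS. The part of these shifts in the differences above was not tested.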

How the data were processed

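Total RNA of corpora lutea was hybridised to 4 Affymetrix arrays. The deposited values are MAS5 probe set intensities on a linear scale, per the labels' descriptions and the submitters' processing notes. For the scaling target and detection calls, the sources used here give nothing. The deposited signals were tested as log2(signal + 16) and not normalized again, since the 2% trimmed means of all arrays were equal to well within 10%. From 52865 probe sets 99 controls were removed, and the 31659 with a mean log2 above the 40th percentile (a signal of 90.7) were kept. The gene annotation is that of the platform: 24956 probe sets had 1 symbol, 361 several and 27449 none. The probes are those of a rhesus array, and how bonnet monkey transcripts mismatch them was not examined. No sequence table was used, so no promoter motifs were searched. Of the 102 members, 9 rested on a probe set whose suffix (_s_at) marks possible detection of several transcripts.

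Groups came from the sample titles. All kept probe sets were tested in 1 fit with limma 3.58.1 in R 4.3.3 (lmFit, eBayes with trend, two-sided, Benjamini-Hochberg adjustment, threshold 0.05), and SDs and intervals rest on 2 arrays a group, whose number limits precision. The design text of the series gives 2 animals per group, but the labels do not tie arrays to animals. The p-values therefore measure the spread between these arrays, which may be partly technical. Fold differences are differences of mean log2(signal + 16) on the linear scale, and this scale understates changes of dim genes. The script was tested on simulated data.

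The members, lists, tests and the naming rule were chosen with earlier results of these data known. The rule named a panel of 27 genes (21 with a probe set, 20 kept), up to 4 genes per role with the smallest p among those whose groups do not overlap, genes past the 2-fold rule, genes whose probe sets disagree in sign and 2 genes per list of other pathway genes. Further genes in the text were picked with their values in view. Cell type marker lists were granulosa-lutein, theca-lutein, endothelial, pericyte and smooth muscle, macrophage, T and NK cell, neutrophil and platelet, and fibroblast. Alternatives were quantile normalization, centring on array medians, a pseudocount of 1 or 64, dim probe sets left in or a stricter 70th percentile filter, eBayes without trend or robust, limma's array weights, other choices of probe set and leaving out each array.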

Additional observations from a re-analysis of the deposited data

How the results depend on the processing

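No paired analysis was possible because the rhLH arrays carry replicate numbers 3 and 4 and the PBS arrays 1 and 2. With limma's adjusted p, 0 of the members passed under each of the 11 alternatives that kept all 4 arrays, with smallest adjusted p-values of 0.894 to 0.991. Leaving out 1 array gave 0 to 21. The 2-fold count of lower genes was 2 with no filter and 0 with the 70th percentile filter, the second brightest probe set or the mean over probe sets. It was 1 to 10 with 1 array left out, and that of higher genes 0 to 13. Genes below both PBS arrays numbered 9 of 50 with the 70th percentile filter, which tests fewer genes, and 23 to 43 with 1 array left out. Those above both then numbered 17 to 35. The shares of all genes from 4 arrays are no background for counts with 1 array left out. For the 2-fold and non-overlap counts under these alternatives no share of all genes is given, so they are not read as results about the members. With the 70th percentile filter 1 of 50 members had an unadjusted limma p under 0.05, as did 129 of all 7205 genes. With the second brightest probe set 1 of 87 did, as did 200 of all 10998 genes. Counts of these with 1 array left out rest on a single array in 1 group and are not given. Signs often turned. Of the 48 kept members named by rule, 14 turned without PBS replicate 1, as did 35 of all 87, and 14 of the 29 with several probe sets turned with the second brightest. Among those named whose difference exceeded its SE, the turns were those of CREB3 with its second probe set (−0.88), with the mean over probe sets (−0.11) and without PBS replicate 1 (−0.27, the leave-one-out range running to 1.60), of CREB1 without PBS replicate 1 (−0.077, running to 1.19), and of RAPGEF4 (0.59), RGS12 (0.70) and RGS4 (−0.45) with the second brightest probe set. Turns of differences within their SE included PDE1C (−1.49), AKAP7 (−0.76) and AKAP17A (0.41) with the second brightest probe set and PRKAR1A (−0.30) and PDE8A (0.27) without PBS replicate 1. The cause was not tested. Centring arrays on their medians moved the median of all genes to 0.13 on the log2 scale, where it was 0.018 as reported, and that of the members to 0.031. Without PBS replicate 1 the members' median (0.037) lay above that of all genes (−0.0024). Where both signals of a group lay under the filter level, as for PDE3A and RGS13 with rhLH, the size of the difference depends on the pseudocount, and 2 arrays a group limit every value.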
